A study of Mus musculus with 9 samples.

Results

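The proneural and neuronal helix-loop-helix cascade was followed through the development of the mouse olfactory bulb, the part of the forebrain that receives the olfactory nerve. It was taken as 10 genes chosen by name: Neurog1, Neurog2, Neurod1, Neurod2, Neurod4, Neurod6, Nhlh1, Nhlh2, Insm1 and Btg2. They are 10 of the 18193 genes that the array annotation names alone on a probe set. They were measured by 18 probe sets, of which 15 passed the filter on low values, a log2 level of 5 or more on at least 2 arrays. Each gene had at least 1 probe set among these 15, so all 10 were tested, and the one with the highest mean stood for its gene. The samples were dissected bulbs of CD1 mice, an outbred strain, at E11, E12, E13, E14, E15, E16, E17, E18 and P0 (the day of birth). Each age was 1 embryo or pup on 1 Affymetrix array, with no treatment and no genetic change, and the RNA was amplified in 2 rounds. No age had a replicate, so the error of a trend is the scatter of the 9 animals around it. All values are log2 levels per probe set, on which 1 unit is a 2-fold difference, and levels of different genes are not compared.

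Proneural factors are basic helix-loop-helix proteins that bind DNA as dimers with E proteins and push dividing neural progenitors towards the neuronal fate. Neurog1 and Neurog2 act first and switch on later factors of the Neurod and Nhlh families in cells that are leaving the cell cycle or have just left it, while Notch signalling and Id proteins hold this step back. Insm1, a zinc finger protein, and Btg2, an antiproliferative co-regulator, are not helix-loop-helix proteins but mark progenitors that are about to produce neurons. In the bulb, the neurogenin lineage gives the glutamatergic mitral and tufted cells, its output neurons.

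Both neurogenins, both Nhlh genes, Neurod4, Insm1 and Btg2 were high in the first days and fell towards birth, while the other 3 Neurod genes had no linear slope past the threshold. Over the 9 arrays 7 of the 10 genes fell, 0 rose and 3 did not pass the test of a linear slope (limma, Benjamini-Hochberg over 10864 genes, threshold 0.05). At an unadjusted p under 0.05 and by exact rank correlation, 0 of the 10 rose as well. The background was high: 21.9% of all genes tested fell and 25.2% rose. The median slope of the 10 genes was -0.34 log2 units per day, against 0.0020 over all genes tested. Of the 7 genes that fell, 5 read highest at E12. In whole tissue, fewer cells that express a gene and less RNA per cell cannot be told apart.

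**Figure D1:**
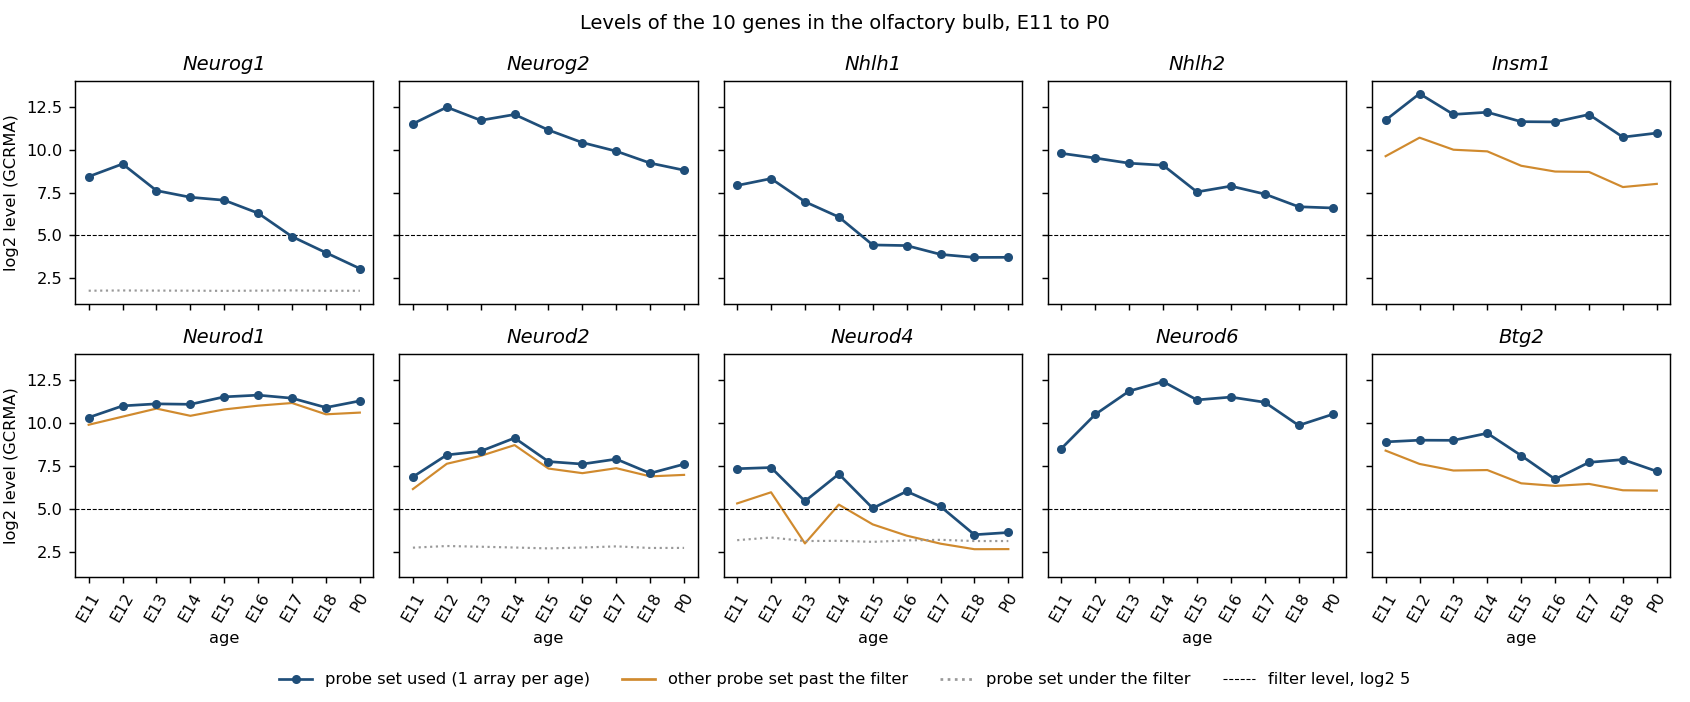
Log2 level (y axis, GCRMA) of each gene at each age (x axis), with 1 array per point; blue is the probe set used, orange another that passed the filter, dotted grey one that did not, and the dashed line marks log2 5. Neurog1 falls from 9.17 at E12 to 3.07 at P0, while Neurod6 climbs from 8.51 at E11 to 12.41 at E14.

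Across the arrays the median over all probe sets lay between 4.08 and 4.23. Xist, made from the inactive X of females, was at 13.42 or more on 4 arrays (E11, E12, E15 and P0) and at 2.76 or less on the other 5, so both sexes were present and E14 and E15 differed in sex. The tissue label was checked against markers of the bulb. Reln and Cdhr1, of mitral cells, read 11.13 and 6.39 at E11 and 13.97 and 13.86 at P0, and Tbx21, restricted to mitral and tufted cells, was under 5 at E11, E12 and E14. Not all such markers rose: Nrp1 did, Tbr1 (11.57 at E11, 10.29 at P0) and Lhx1 fell, and Eomes did not pass the slope test. Lhx1 was past 5 at E11 (5.20) and E13 (5.32) alone, so its fall rests on readings under the filter level. Of 11 olfactory epithelium genes on the array, a tissue that also expresses Neurog1, Neurod1 and Nhlh1, 8 did not pass the filter. Among these Omp, Gng8, Cnga2, Cnga4, Stoml3 and Trp63 read at most 2.79 on any array, while Eya2 and Krt5 reached 5.04 and 5.12. Of the 3 that passed, Ebf1 fell, as 7 of the 10 cascade genes did. It read 8.14 at E11, 9.32 a day later and 6.94 at birth (slope -0.24 log2 units per day, limma adjusted p = 0.00291). Adcy3 (5.26 at E11, 7.697 at P0) and Eya1 (7.47 and 8.55) rose. The part of such cells in the results was not tested.

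Neurog1, a neurogenin that starts the neuronal program, was lower at each age from E13 to E16 than at the one before, and then under the filter level. It read 8.43 at E11, 9.17 at E12, 7.61 at E13, 7.22 at E14, 7.05 at E15, 6.30 at E16, 4.93 at E17, 3.99 at E18 and 3.07 at P0. The highest level came at E12, and the readings under 5 from E17 on give no order. Its slope was -0.72 ± 0.064 log2 units per day (moderated standard error, n = 9 arrays, limma adjusted p = 2.55e-05). With P0 set to 5, the E12 level was at least 17.95-fold higher than that at P0. The second Neurog1 probe set read 1.77 to 1.79 on all arrays and did not pass the filter.

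Neurog2, the neurogenin of glutamatergic progenitors of the forebrain, began to fall steadily after E14. It read 11.51 at E11, 12.47 at E12, 11.71 at E13, 12.05 at E14, 11.14 at E15, 10.41 at E16, 9.91 at E17, 9.22 at E18 and 8.80 at P0. The 4 arrays up to E14 were all above the 5 later ones, and after E14 each age was lower than the one before. The slope was -0.43 ± 0.060 (adjusted p = 0.000328), and E12 was 12.8-fold above P0. Unlike Neurog1, it stayed well above the filter level at birth.

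Nhlh1, a helix-loop-helix factor of newborn neurons, was under the filter level at the last 5 ages. It read 7.91 at E11, 8.31 at E12, 6.96 at E13, 6.07 at E14, 4.44 at E15, 4.41 at E16, 3.89 at E17, 3.72 at E18 and 3.72 at P0. Its whole measurable decline therefore lay between E12 and E15, and readings under 5 give no order. It passed the filter through its 4 early arrays alone. The slope was -0.64 ± 0.073 (adjusted p = 0.000109), and E12 was at least 9.93-fold above P0.

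Nhlh2, its paralog, which is also known from hypothalamic neurons, stayed near its E11 level up to E14 and was lower after it. It read 9.78 at E11, 9.51 at E12, 9.21 at E13 and 9.09 at E14, then 7.53 at E15, 7.87 at E16, 7.41 at E17, 6.67 at E18 and 6.60 at P0. The 4 early arrays spanned less than 1 log2 unit and did not overlap the 5 later ones. The slope was -0.43 ± 0.040 (adjusted p = 2.87e-05), and E11 was 9.10-fold above P0. No other gene of the cascade read highest at E11.

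Promoter sequences are shown for Nhlh1, Nhlh2, Neurod2 and Neurod6, because helix-loop-helix dimers bind the E-box CANNTG and the first pair fell together and the second was highest at E14. They are RefSeq sequences on GRCm38.p6, up to 250 bases before the annotated start, without bases that another RefSeq model of the gene transcribes, with each CANNTG in capitals. Nhlh1 lies at chr1:172057597-172057846 on the minus strand, Nhlh2 at chr3:102009895-102010110 on the plus strand, Neurod2 at chr11:98329646-98329895 on the minus strand and Neurod6 at chr6:55681264-55681513 on the minus strand.
Nhlh1: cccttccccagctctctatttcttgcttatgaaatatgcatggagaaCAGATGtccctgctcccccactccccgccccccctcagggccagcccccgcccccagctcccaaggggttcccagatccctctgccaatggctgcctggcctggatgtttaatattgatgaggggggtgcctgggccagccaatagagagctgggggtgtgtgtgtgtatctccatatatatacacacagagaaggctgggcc
Nhlh2: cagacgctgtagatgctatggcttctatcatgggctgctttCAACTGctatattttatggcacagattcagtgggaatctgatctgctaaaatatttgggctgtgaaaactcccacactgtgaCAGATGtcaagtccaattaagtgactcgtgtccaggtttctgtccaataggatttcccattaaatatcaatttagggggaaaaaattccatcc
Neurod2: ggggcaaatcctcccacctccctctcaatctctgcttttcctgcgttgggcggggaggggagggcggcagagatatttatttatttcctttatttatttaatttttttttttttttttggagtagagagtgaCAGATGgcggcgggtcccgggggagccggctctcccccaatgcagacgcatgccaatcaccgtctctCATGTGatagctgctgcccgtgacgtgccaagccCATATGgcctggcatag
Neurod6: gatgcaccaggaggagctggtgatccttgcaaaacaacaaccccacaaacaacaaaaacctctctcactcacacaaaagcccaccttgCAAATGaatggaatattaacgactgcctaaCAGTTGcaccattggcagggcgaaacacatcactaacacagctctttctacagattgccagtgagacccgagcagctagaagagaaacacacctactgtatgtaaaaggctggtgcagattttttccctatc
The letters CAGATG, an E-box form bound by Neurod and neurogenin proteins, stood 203 bases before the start of Nhlh1, 127 before that of Nhlh2 and 118 before that of Neurod2. Searched on both strands, CAGATG (a case of CANNTG) occurred in the full 250-base window of 3 of the 9 genes matched in the table (all but Insm1) and in 14.4% of 32851 promoters. CANNTG itself, the same on both strands, occurred in 5 of the 9 (Nhlh1, Nhlh2, Neurod1, Neurod2 and Neurod6) and in 66.2% of all. A match is a string of letters in this window and was not shown to be bound.

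Insm1, the zinc finger factor of basal progenitors, rose for 1 day and then declined, unevenly on the probe set used. It read 11.72 at E11, 13.26 at E12, 12.05 at E13, 12.18 at E14, 11.63 at E15, 11.62 at E16, 12.05 at E17, 10.73 at E18 and 10.97 at P0. E12 stood above all other ages, and E17 was level with E13 and E14. The slope was -0.19 ± 0.061 (adjusted p = 0.0284), and E12 was 4.91-fold above P0. This call ended without the E12 (adjusted p = 0.0783), E18 (0.0889) or P0 array (0.0902), without a filter (0.0600) and by exact rank correlation (0.0803), and over all 21 alternatives the adjusted p ran from 0.00377 to 0.0902. A second Insm1 probe set had a steeper slope, -0.31 ± 0.051 (adjusted p = 0.000869 over all probe sets), and read 10.70 at E12 and 8.004 at P0. On it each age from E13 to E18 was lower than the one before. E17 there, at 8.70, was not level with E13 (9.996) and E14 (9.90).

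Btg2, which slows the cell cycle in progenitors on the way to neurons, stayed level up to E14 and was lower from then on. It read 8.89 at E11, 8.99 at E12, 8.98 at E13 and 9.40 at E14, then 8.09 at E15, 6.71 at E16, 7.70 at E17, 7.86 at E18 and 7.18 at P0. The 4 early arrays were all above the 5 later ones, and the lowest was E16 rather than P0. The slope was -0.26 ± 0.069 (adjusted p = 0.0115). From E13 to P0 alone (adjusted p = 0.0537) and by exact rank correlation (0.0708) it did not pass, in a range of 0.000796 to 0.0708 over all alternatives. The second Btg2 probe set was highest at E11 instead, at 8.38, and fell to 7.25 at E14, 6.48 at E15 and 6.05 at P0 (slope -0.27 ± 0.036, adjusted p = 0.000271). Its lowest age was P0, with 6.33 at E16. The early plateau and the low point at E16 were thus each seen on 1 of 2 probe sets.

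Neurod4, a factor that works beside the neurogenins in early neurons, fell like them but with swings between days. It read 7.33 at E11, 7.397 at E12, 5.44 at E13, 7.02 at E14, 5.02 at E15, 6.01 at E16, 5.13 at E17, 3.48 at E18 and 3.61 at P0. E13 lay below both of its neighbours by more than 1 log2 unit. The slope was -0.47 ± 0.086 (adjusted p = 0.00148), and the highest level was at least 5.27-fold above P0. With values under 5 set to 5 the slope was -0.30 (adjusted p = 0.00774). A second probe set was past 5 at E11, E12 and E14 (5.31, 5.96 and 5.24) and under it at E13 and from E15 on, so it does not give the size of these swings, and the remaining one read at most 3.32.

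Neurod6, a factor of differentiating glutamatergic neurons, rose steeply from E11 and turned in the middle of the course. It read 8.51 at E11, 10.50 at E12, 11.86 at E13, 12.41 at E14, 11.34 at E15, 11.51 at E16, 11.20 at E17, 9.86 at E18 and 10.50 at P0. E14 was 14.99-fold above E11 and 3.76-fold above P0. It had no linear slope (0.064 ± 0.13, adjusted p = 0.717) but a negative quadratic term of -0.16 ± 0.033 (adjusted p = 0.0249), with a fitted turning point at day 15.2 and a height of 2.49 log2 units over the fitted ends. A peak was called for 1 of the 10 genes, this one, and for 4.96% of all genes tested, and a dip for 0 of 10 (limma, adjusted) and 1.26%. At an unadjusted p under 0.05 there were 2 peaks, Neurod6 and Neurod1, and 0 dips. Leaving out E11 ended this peak (adjusted p = 0.199), and over E13 to P0 alone Neurod6 fell, by 0.33 per day (adjusted p = 0.0103). A term for sex (adjusted p = 0.113), a P0 age of 20 days (0.0774) and the absence of a filter (0.0717) ended the peak call too, in a range of 0.0113 to 0.889.

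Neurod2, its close relative in the same neurons, had a profile of like shape and smaller size. It read 6.85 at E11, 8.13 at E12, 8.35 at E13, 9.12 at E14, 7.75 at E15, 7.60 at E16, 7.89 at E17, 7.06 at E18 and 7.59 at P0. E14 was again the highest age and E11 the lowest. Neither the slope (-0.045 ± 0.078, adjusted p = 0.665) nor the quadratic term (-0.063 ± 0.029, adjusted p = 0.230) passed. The second probe set agreed in its highest and lowest ages, reading 6.14 at E11, 8.71 at E14 and 6.97 at P0.

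Neurod1, which drives neuronal differentiation and is kept by some mature neurons, was the steadiest of the 10 genes. It read 10.31 at E11, 10.99 at E12, 11.11 at E13, 11.08 at E14, 11.52 at E15, 11.62 at E16, 11.44 at E17, 10.90 at E18 and 11.28 at P0. All ages after E11 lay within 0.72 log2 units of the highest, E16. The slope of 0.080 ± 0.040 did not pass (adjusted p = 0.123), but it did without the E18 array (0.11 per day, adjusted p = 0.0394), and the quadratic term (adjusted p = 0.0609) passed without P0 (0.0404). The second probe set had a slope of 0.075 ± 0.039 (adjusted p = 0.145) and was highest at E17, at 11.16.

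**Figure D2:**
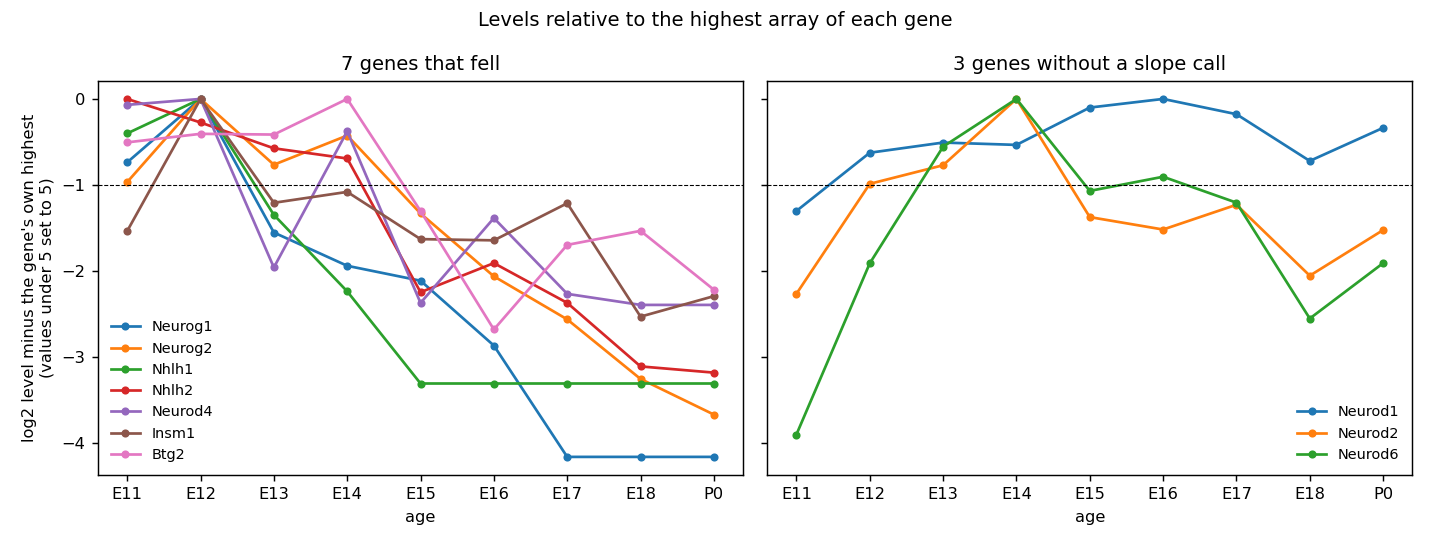
Log2 level of each gene minus its own highest level (y axis, values under 5 set to 5) against age (x axis), 1 array per point, with the 7 genes that fell on the left and the 3 without a slope call on the right; the dashed line marks 2-fold below the highest. On the probe sets used, Neurog1, Nhlh1 and Insm1 stay below that line after E12, whereas Neurod1 on the right is under it at E11 only.

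The genes left their highest level at different ages. Neurog1, Nhlh1 and Insm1 were last within 1 log2 unit of their highest level at E12. Neurog2, Neurod4, Nhlh2, Btg2 and Neurod2 were last within that range at E14 and Neurod6 at E16, while Neurod1 was within it at P0. For Insm1 and Btg2 this depended on the probe set: the last such age was E14 on the second Insm1 probe set and E12 on the second Btg2 probe set. With 1 animal an age, this order has no error of its own.

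Probe sets of the same gene gave the same calls. Of the 15 member probe sets past the filter 10 fell, 0 rose and 5 did not pass, against 23.7% of all 21724 probe sets falling and 20.7% rising. For each of the 5 genes with several such probe sets, all of them had the same call. The second Neurod4 probe set passed the filter through E11, E12 and E14 alone, and the Nhlh1 one through E11 to E14 alone. Their falls are therefore not independent of the filter.

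The larger day-to-day differences lay at E12, E13 and E15. From E11 to E12, 9 of the 10 genes were higher, against 41.2% of all genes, and Neurod6 (1.99), Insm1 (1.54) and Neurod2 (1.28) by more than 1 log2 unit, which 3.55% of all genes were. From E12 to E13, Neurod4 (-1.96), Neurog1 (-1.55), Nhlh1 (-1.35) and Insm1 (-1.21) dropped past 1 unit, 4 of 10 against 2.01% of all genes, while Neurod6 was 1.36 higher (1 of 10 against 5.77%). From E14 to E15, 9 of 10 were lower, against 36.9% of all genes, and 6 past 1 unit, against 1.24%. Past 1 unit elsewhere were Neurod4 from E13 to E14 (1.59, background 1.61%), Btg2 from E15 to E16 (-1.38, 0.681%), Neurog1 from E16 to E17 (-1.30, 0.589%), and Neurod6 (-1.35) and Insm1 (-1.32) from E17 to E18 (0.644%). Second probe sets were not past 1 unit in several of these steps: Insm1 differed by -0.70 from E12 to E13 and -0.88 from E17 to E18, Btg2 by -0.15 from E15 to E16. From E11 to E12 they were, with 1.08 for Insm1 and 1.47 for Neurod2.

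The 6 genes of the E14 to E15 step were 3 of the 4 Neurod genes, both Nhlh genes and Btg2, with neither neurogenin among them. In order of size they were Neurod4 (-1.998), Nhlh2 (-1.56), Neurod2 (-1.38), Btg2 (-1.30), Nhlh1 (-1.07, with E15 set to 5) and Neurod6 (-1.07), while Neurog2 differed by -0.91, Insm1 by -0.55, Neurog1 by -0.17 and Neurod1 by 0.43. Of these, Neurod2 was past 1 unit on its second probe set too (-1.37), but Btg2 (-0.77) and Neurod4 (-0.24, with E15 set to 5) were not. None of the 6 regained its E14 level at any later age. These steps compare 1 animal with another and have no test, and the part of sex, which differed between E14 and E15, was not tested for them.

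**Figure D3:**
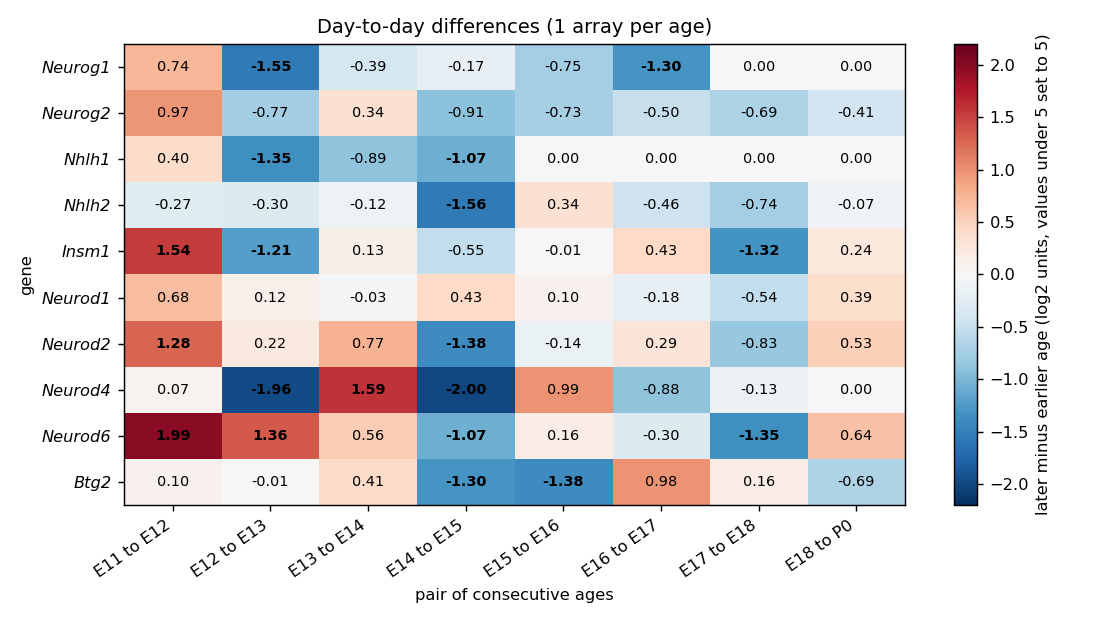
Difference between consecutive ages (columns) for each gene (rows), in log2 units with values under 5 set to 5; red is higher and blue lower at the later age, and bold marks over 1 unit. The E14 to E15 column is blue for 9 of the 10 genes and bold for 6, and only Neurod1 is higher there.

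Split at that step, a boundary chosen after the values were seen, 5 of the 10 genes (Neurog1, Neurog2, Nhlh1, Nhlh2 and Btg2) had every array from E11 to E14 above every array from E15 to P0. The same held for 11.5% of all genes tested. Nhlh1 passed the filter through its E11 to E14 arrays alone, so its separation here is not independent of the filter. For Nhlh2 the lowest early and the highest later level were 9.09 and 7.87, for Nhlh1 6.07 and a reading under 5, and for Neurog1 7.22 and 7.05.

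**Figure D4:**
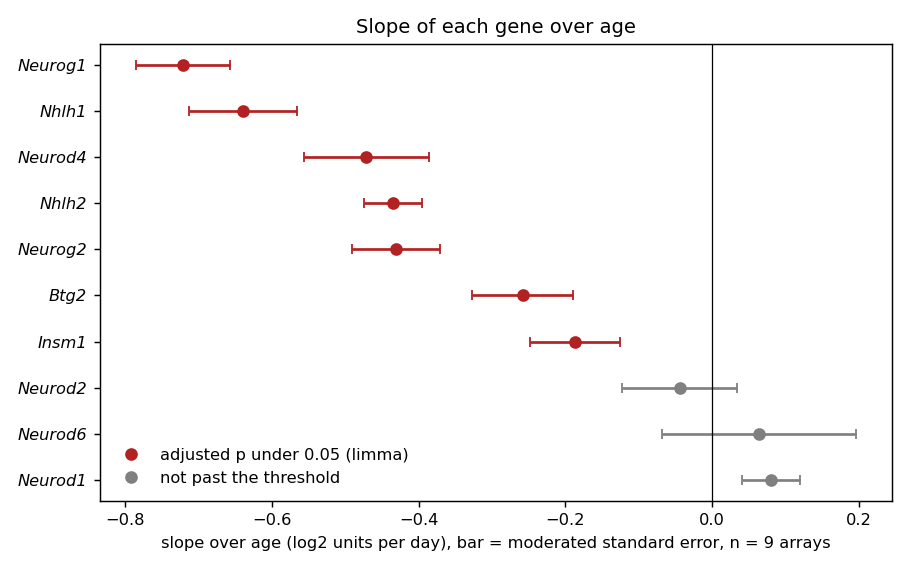
Slope of each gene over age (x axis, log2 units per day) with its moderated standard error, n = 9 arrays; red points passed the threshold in limma, grey ones did not. Neurog1 at -0.72 and Nhlh1 at -0.64 are the steepest, and the 3 grey points lie between -0.045 and 0.080. With values under 5 set to 5, Neurog1 is at -0.54 and Nhlh1 at -0.44, near Nhlh2 at -0.43.

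Whether related genes declined at different rates was tested on 8 pairs, through the slope of the within-array difference and an exact permutation of the 9 ages (two-sided, Benjamini-Hochberg over the 8 pairs). The difference was past the threshold in 5 pairs. Neurog2 lost ground to Neurod1, its downstream relative, by -0.51 ± 0.053 per day (standard error, n = 9 arrays, exact permutation adjusted p = 0.000573). Within the Neurod family, Neurod1 and Neurod4 parted by 0.55 ± 0.096 per day (exact permutation adjusted p = 0.00341). Part of this size rested on Neurod4 readings under the filter level. With values under 5 set to 5 it was 0.38 (exact permutation adjusted p = 0.0325).

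Neurog1 fell faster than Neurog2, by -0.29 ± 0.052 (exact permutation adjusted p = 0.00341), and Nhlh1 faster than Nhlh2, by -0.20 ± 0.073 (0.0421). Both differences rested on readings under the filter level. With values under 5 set to 5 they were -0.11 (adjusted p = 0.243) and -0.0083 (0.923), so that different rates within these 2 paralog pairs were not shown among measurable levels. The Nhlh difference also ended without any 1 of the E11, E12, E13, E15, E16, E17 and E18 arrays, with adjusted p-values up to 0.0985.

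Neurog2 also fell faster than Insm1, by -0.24 ± 0.060 (exact permutation adjusted p = 0.0129), and this difference kept its call under all 14 alternatives. Neurog2 against Btg2 (-0.17 ± 0.086, adjusted p = 0.116) passed under 1 alternative, without the E16 array (0.0278). Neurod1 against Neurod2 (0.12 ± 0.079, adjusted p = 0.179) and Neurod2 against Neurod6 (-0.11 ± 0.087, adjusted p = 0.253) did not pass in any alternative, by exact permutation. A p that misses the threshold does not show equal slopes.

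**Figure D5:**
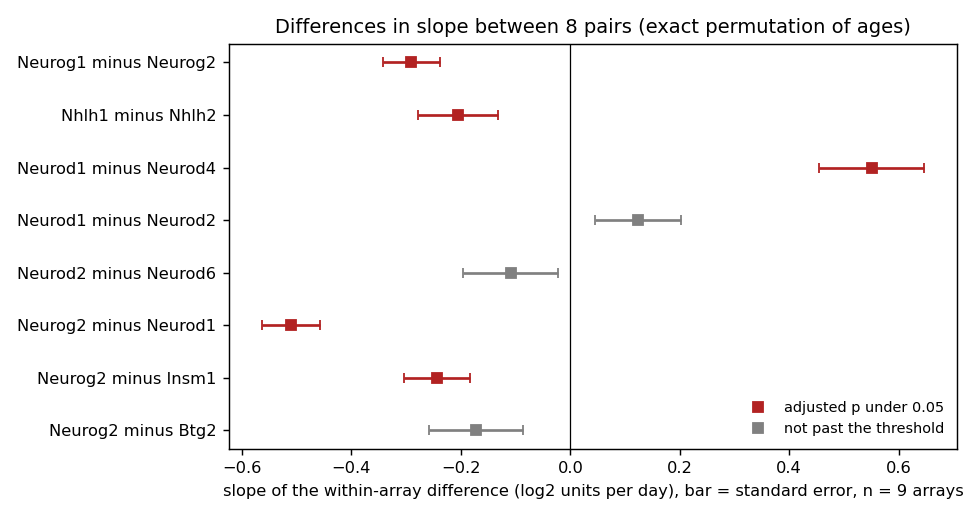
Slope of the within-array difference (x axis, log2 units per day) for 8 pairs of genes, with its standard error, n = 9 arrays; red squares passed the threshold by exact permutation of the ages. Neurod1 minus Neurod4 at 0.55 and Neurog2 minus Neurod1 at -0.51 lie farthest from 0. With values under 5 set to 5 the former is 0.38 and the latter stays at -0.51.

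Across the 9 arrays, which share the course of age, the profiles of the falling genes other than Btg2 and Insm1 were alike. Those of Btg2, Insm1 and the other 3 genes varied more. Btg2 had r = 0.58 with Insm1, 0.61 with Neurod4, 0.70 with Neurog1, 0.78 with Nhlh1 and Nhlh2, and 0.80 with Neurog2. Insm1 had 0.73 with Nhlh1, 0.74 with Nhlh2, 0.78 with Neurog1 and 0.79 with Neurod4. The neurogenins had r = 0.96 with each other (Pearson, n = 9 arrays, a description), the Nhlh pair 0.95, and Neurog2 0.91 with Nhlh2, 0.87 with Neurod4 and 0.83 with Insm1. Neurod2 and Neurod6 had r = 0.85, and Neurod6 0.72 with Neurod1 but 0.0036 with Neurog1. Neurod2 had 0.33 with Neurod1, under its 0.51 with Neurog2 and 0.56 with Insm1. Neurod1 ran opposite to Nhlh1 (-0.63) and Btg2 (-0.60).

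The genes with the most similar profiles were taken as the 3 of highest r for each member. For Neurog1 they were Xpo7, Smarcc1 and Cebpg (r 0.98 to 0.99), and for Neurog2 Smc6, Xpo7 and Pou3f3 (0.98). For Nhlh1 they were the Wnt receptor gene Fzd8 (0.997), Cacfd1 and the progenitor factor Sox3, and for Nhlh2 Ran, the Polycomb methyltransferase gene Ezh2 and Nmral1 (0.99). For Neurod4 they were Cdk12, Sarnp and Phf6 (0.97 to 0.98). Such profiles were common: 742 genes reached r = 0.9 with Nhlh1, 676 with Nhlh2, 476 with Neurog1, 203 with Neurod4 and 142 with Neurog2.

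Fewer genes reached r = 0.9 with the other 5 members. For Neurod1 there were 78, led by Chfr, Atp6v1g1 and Pja1 (0.96 to 0.97), and for Neurod6 23, led by Inhbb, the ephrin receptor gene Epha3 and the Slit receptor gene Robo1 (0.95). Insm1 had 22 (Slc35e3, Bod1l and Pabpn1, 0.95 to 0.97), Btg2 15 (Cbwd1, Sdf2l1 and Taf5, 0.94 to 0.96) and Neurod2 10 (Rasgef1b, St8sia1 and Cd24a, 0.93 to 0.94).

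Genes that proneural factors are known to induce fell in most cases. Of 19 tested 13 fell, 0 rose and 6 did not pass, against 21.9% of all genes tested falling and 25.2% rising. The median slope was -0.19, against 0.0020 over all genes. St18, a zinc finger factor of early neurons, had the steepest slope (-0.54 ± 0.059, adjusted p = 8.18e-05), from 10.97 at E11 to 6.72 at P0. Ebf2, a helix-loop-helix factor of the Ebf family (-0.43 ± 0.076, adjusted p = 0.00129), had done most of its fall by E14, from 8.81 at E11 to 5.85, and ended at 5.41. Dll3, a Notch ligand (-0.42 ± 0.078, adjusted p = 0.00178), was under 5 from E14 on. The 6 that did not pass were Rnd2, Eomes, Sox4, Ebf3, Scrt1 and Srrm4, and Eomes had a peak call, as Neurod6 did (turning point at day 15.4, adjusted p = 0.0214). Tbr1, also of this list, had a peak call too, and Dll3 and Ebf2 had dip calls. In the other lists, peaks were called for Id2, Elavl4, Stmn2, Cdhr1, Reln and Nrp1, and dips for Hes1 and Hbb-bh1.

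Of the opposing side of the pathway, the genes of Notch signalling and repression fell as well. All 6 tested genes of the Notch side and its repressors fell, against 21.9% of all genes tested. They were Hes1 (-0.26 ± 0.068), Rest, the repressor of neuronal genes (-0.17 ± 0.029), Notch1 (-0.16 ± 0.034), Hey1 (-0.16), Rbpj (-0.12) and Hes5 (-0.067). Hes1 read 9.70 at E11, 6.98 at E14 and 7.23 at P0.

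The dimer partners and the Id proteins, which take E proteins away from proneural factors, went in both directions. Of 7 tested, Id1 (0.40 ± 0.075), Id3 (0.36 ± 0.055) and Id2 (0.24 ± 0.077) rose, Id4 (-0.30 ± 0.034) and the E protein gene Tcf3 (-0.23 ± 0.036) fell, and the E protein genes Tcf4 (0.11, adjusted p = 0.0724) and Tcf12 (-0.041, adjusted p = 0.0584) did not pass. Id2 also had a peak call, with 11.32 at E11, 14.35 at E16 and 13.78 at P0 (adjusted p = 0.00416). Over all genes tested, 25.2% rose and 21.9% fell.

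Other neural helix-loop-helix factors were mostly too low to test. Neurog3, Atoh1, Atoh7, Ptf1a, Olig3 and Bhlhe23 read at most 2.65 on any array. Of the 2 tested, Olig1 rose (0.81 ± 0.14) and Olig2 did not pass (0.091, adjusted p = 0.526). Among relatives of Btg2, Btg1 rose by 0.16 ± 0.032 (adjusted p = 0.00243), opposite in sign to Btg2, and Tob1 (-0.023) and Tob2 (-0.028) did not pass.

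Most genes of newborn neurons had no slope past the threshold. Of 8 tested, Stmn2 (0.16 ± 0.043) and Dcx, a microtubule protein of migrating neurons (0.080 ± 0.027), rose and 6 did not pass, Tubb3, Elavl2, Elavl3, Elavl4, Stmn1 and Cntn2. Rising genes made up 25.2% of all genes tested. The median of the list was 12.12 at E11 and 12.76 at P0.

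Marker genes of several other cell populations changed on the same arrays, and the part of these cells in the results was not tested. For the counts that follow, 21.9% of all genes tested fell and 25.2% rose. All 7 tested markers of cycling progenitors fell, and their median went from 11.85 at E11 to 9.72 at P0. Of 4 red cell genes, the embryonic globin genes Hbb-y, Hba-x and Hbb-bh1 fell. Alas2 did not pass (9.46 at E11, 8.43 at E18, 6.94 at P0, limma adjusted p = 0.306). The median of the 4 went from 13.72 at E11 to 2.96 at P0, from which the amount of red cells cannot be read. That of 6 meningeal genes, of which 5 rose, went from 6.82 to 9.52. Among 8 genes of cortical and other forebrain glutamatergic neurons, which express Neurod2 and Neurod6, Fezf2 (-0.44), Emx1 (-0.29) and Emx2 (-0.28) fell, Slc17a7 (0.34) rose and 4 did not pass. Their median lay between 6.88 and 9.80, and it was highest at E12 and lower at E14 (8.48) than at E11. Those that did not pass were Slc17a6, Bcl11b, Rorb and Cux2. Of these, Rorb, Bcl11b and Cux2 read highest at E14 and Slc17a6 at E15, and none had a peak call. Rorb read 3.70 at E11, 7.32 at E14 and 5.49 at P0. Neither its slope (limma adjusted p = 0.677) nor its quadratic term (0.0966) passed.

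Markers of the bulb's own neurons rose in most cases. Of 7 tested mitral and tufted cell genes, 4 rose (Tbx21, Cdhr1, Reln and Nrp1), Tbr1 and Lhx1 fell and Eomes did not pass. Lhx1 was past 5 at E11 and E13 alone. The median of the 7 was 8.75 at E11, 11.63 at E14 and 11.23 at P0. Of 8 interneuron genes 7 rose and Calb2 did not pass (adjusted p = 0.0542), with a median of 9.40 at E11 and 10.49 at P0. Among all genes tested, 25.2% rose and 21.9% fell.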

How the data were processed

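Total RNA of 1 olfactory bulb sample per age was hybridised to an Affymetrix mouse array of its own. The values the authors deposited are log2 levels of probe sets. GCRMA, which corrects background by probe sequence and normalises across arrays, produced them per the submitters' processing notes. The log2 scale was inferred from the values, and the version is not given in the sources used here. The number of arrays limits the precision. No further scaling was applied. Of 45101 probe sets, 64 controls were left out and 34945 carried 1 gene name.

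Probe sets at log2 5 or more on at least 2 arrays were kept (21724), and the one with the highest mean stood for its gene (10864 genes). Each gene was fitted against age (E11 to E18 as days 11 to 18, P0 as day 19) in limma 3.58.1 with R 4.3.3, with a variance trend and a two-sided test. Peaks and dips are quadratic terms past 0.05 with a turning point between days 12 and 18. Pairs and ranks were tested by exact permutation of the 9 ages in Python 3.11.15. The fit and the permutation were tested on simulated data. Named genes are all members, the steepest called genes of each list, others needed for small counts, and the 3 most similar profiles. Nrp1, Rorb and marker genes with values were named to check the tissue. The members and lists were chosen with earlier results of these data known.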

Additional observations from a re-analysis of the deposited data

How the results depend on the processing

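The slopes were refitted under 21 alternatives, the quadratic terms under 20 and the pairs under 14. No paired analysis was possible because each age had 1 array. The slope calls of Neurog1, Neurog2, Nhlh1, Nhlh2 and Neurod4 held under all 21, that of Btg2 under 19 and that of Insm1 under 16. With values under 5 set to 5 the slope was -0.30 for Neurod4, -0.54 for Neurog1 and -0.44 for Nhlh1. The count of falling genes was 5 to 7 throughout, 5 by exact rank correlation, and 6 to 7 with 1 array left out. The count of rising genes was 0, or 0 to 1 with 1 array left out (1, Neurod1, without E18). The count of peaks was 0 with P0 at day 20, without a filter, with embryo sex in the fit and from E13 to P0, and ran from 0 (without E11) to 2 (without E12, adding Neurog2, or without P0, adding Neurod1) with 1 array left out. From E13 to P0 the slope of Neurod6 turned to -0.33. The Neurog1 and Neurog2 difference was -0.11 with values under 5 set to 5, and that of Nhlh1 and Nhlh2 was -0.0083 there and -0.18 with P0 at day 20. With 1 array left out, the latter ran from -0.27 to -0.14, and Neurog2 minus Btg2 from -0.24 to -0.12. Beyond the constructions named, the cause of each change was not tested. Signal over background limits Neurog1 from E17, Nhlh1 from E15 and Neurod4 from E18.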
